A study of Mus musculus with 27 samples.

Results

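CTCF, YY1 and the cohesin complex are proteins that fold chromosomes into loops and domains, and their transcripts were followed here in cells with and without the long non-coding RNA locus *Firre*. The genes are *Ctcf*, *Yy1*, *Rad21*, *Smc1a*, *Smc3*, *Stag1*, *Stag2*, *Nipbl*, *Pds5a* and *Pds5b*. They were taken by gene symbol from the table of expected counts. All 10 were found among the 37310 genes of the table, and all 10 were among the 15387 genes that passed the filter on low counts and were tested.

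The RNA-seq libraries came from mouse embryonic fibroblasts (MEFs), the primary fibroblast cultures grown out of embryos. There were 12 of them, in 4 groups of 3, which are female wild-type, female *Firre* KO, male wild-type and male *Firre* KO MEFs. In the KO mouse the whole *Firre* gene on chromosome X, together with flanking sequence that holds its promoter, was removed by recombination between loxP sites, and the same deletion was carried in both sexes. No other allele or treatment was given for any group. The sources do not say whether replicates of a group came from separate embryos, so p-values measure the spread between these libraries, which may be technical, and the sex of the cells cannot be told apart from the embryos or cultures they came from.

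In the loop extrusion model, cohesin is a ring of SMC1A, SMC3 and RAD21 that reels in chromatin until it meets CTCF bound to DNA. NIPBL loads the ring and drives extrusion, STAG1 or STAG2 joins it as the variable subunit that contacts CTCF, and PDS5A and PDS5B regulate how long it stays on chromatin. CTCF is a zinc finger protein found at most boundaries between topologically associating domains (TADs), and YY1 is a zinc finger protein that connects enhancers with promoters. The *Firre* locus is itself a region of dense CTCF binding, so the comparison of KO with wild type asks whether its loss is accompanied by a change in the transcripts of the proteins that act there.

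The library depth was 42986516 to 65454660 expected counts, with every male library above every female one. *Firre*, listed as *6720401G13Rik*, was at 1.99 to 2.43 CPM (expected counts scaled to 1000000 per library) in female wild-type libraries, at 4.48 to 4.95 CPM in male ones and had 0 counts in all 6 KO libraries, which allows up to 0.0463 to 0.0679 CPM (a limit of 3 counts per library, for counting error only). *Xist* was at 395 to 458 CPM in female libraries and at most 0.0677 CPM in male ones. The summed level of 9 fibroblast markers was 16083 to 23569 CPM. Macrophage markers summed to 44.7 to 145 CPM in female and 7.68 to 17.6 CPM in male libraries.

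On the mouse build NCBIM37 (mm9), 2 of the genes lie on chromosome X, *Smc1a* from 148450971 to 148497237 and *Stag2* from 39502494 to 39630362, both on the plus strand. *Ctcf* lies on chromosome 8 (108160468 to 108206822, plus strand) and *Yy1* on chromosome 12 (110031183 to 110054842, plus strand). *Rad21* (51794151 to 51823306) and *Nipbl* (8241225 to 8394463) are both on the minus strand of chromosome 15. *Smc3* is on chromosome 19 (53674886 to 53720323, plus strand), and *Stag1* spans 360748 bases of chromosome 9 (100498217 to 100858964, plus strand). Chromosome 5 holds both *PDS5* genes, *Pds5a* on the minus strand (66006499 to 66089095) and *Pds5b* on the plus strand (151476314 to 151613265). Merged exons total 2902 bases for *Yy1*, the shortest, and 10266 bases for *Stag1*, the longest. A search of 50-base stretches found other annotated genes that share 0.782% of the stretches of *Smc3*, 0.0963% of those of *Pds5b* and 0.0392% of those of *Stag1*, and none that share those of the other members.

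The promoters of these genes are shown where they hold the letters that YY1 recognises, because *Yy1* is itself a member of the set. RefSeq promoters of the build GRCm38.p6, which run from 250 bases before to 50 bases after the start of transcription, were matched for 7 of the 10 genes. *Rad21*, *Stag2* and *Nipbl* were not matched. The motif searched was GCCATNTT, on both strands, where N is any base. It was present in 4 of these 7 promoters and in 6.05% of all 32851 promoters. The GC content of the 7 promoters was 58.3% to 81.0%, compared with a median of 52.7% for all promoters. Each stretch of 30 bases is written so that the motif reads forward, with the motif in capitals. Positions count from 1 at the first transcribed base. Each is given for the motif base farthest upstream in the gene's direction, which for *Stag1* is the last capital printed.
*Ctcf*, chr8:105636537-105636566, plus strand, motif from position 11: accgcgccgccGCCATTTTgtgtccgagcc
*Smc3*, chr19:53600385-53600414, plus strand, motif from position 1: ccgcggccgccGCCATTTTgtttggccaca
*Pds5b*, chr5:150673779-150673808, plus strand, motif from position -37: ctgctcttggcGCCATTTTgaagcggagag
*Stag1*, chr9:100643235-100643264, minus strand (antisense to the gene), motif from position -202: ggttgccgcccGCCATTTTtagagcttctc

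All 4 stretches carry the same 8 letters, GCCATTTT, and in *Ctcf* and *Smc3* they lie at the start of the transcribed sequence. The matches are a description of the letters and were not tested as binding sites. The letters AGGNGGC, which form part of the CTCF motif, were found on either strand in 3 of the 7 promoters (*Ctcf*, *Yy1* and *Pds5b*) and in 29.4% of all promoters.

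In wild-type MEFs all 10 genes were expressed above the median of the tested genes, and *Rad21* had the highest level. To compare genes, expected counts were divided by the merged exon length and rescaled to an equal total per library (approximate TPM), a scale on which the median of the tested genes was 11.7. *Rad21*, the subunit that closes the cohesin ring, was at 150 ± 5.12 approximate TPM (SD, n = 6 wild-type libraries of both sexes), above 93.3% of the tested genes. *Stag1* was the lowest by this length at 17.8 ± 1.33, above 58.8% of them, and the 2 levels differed 8.43-fold. With the longest annotated transcript in place of the merged exons, *Rad21* was still the highest, at 128 approximate TPM, but *Pds5b* at 24.4 was below *Stag1* at 25.2, with overlapping ranges in both sexes, and the fold between *Rad21* and *Stag1* was 5.08.

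**Figure D1:**
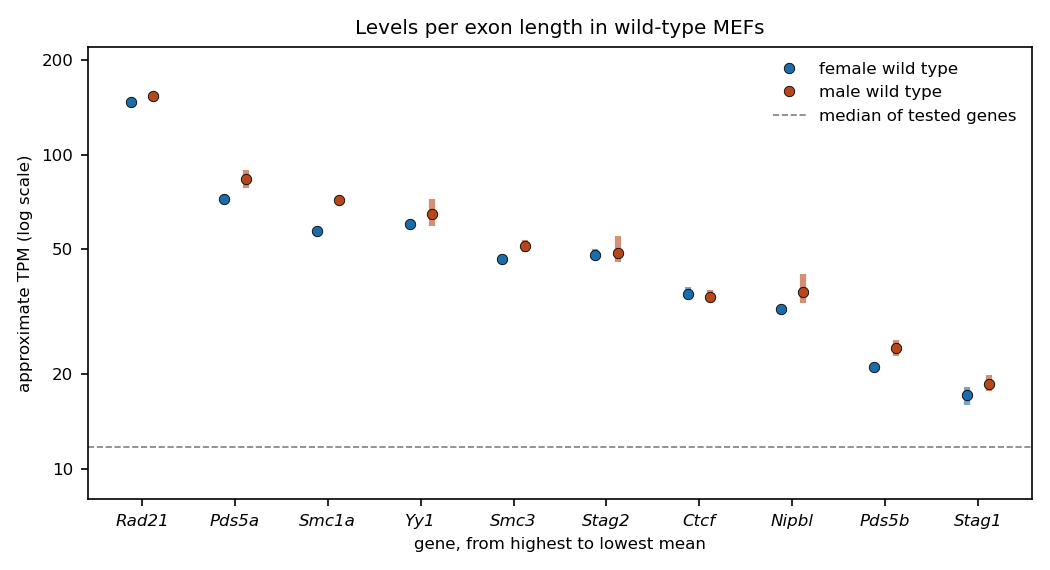
Approximate TPM (log scale) of each gene in wild-type MEFs, per merged exon length, with genes ordered by their mean; points are means of 3 libraries of 1 sex and bars run from the lowest to the highest library. All 10 genes lie above the dashed line, the median of the tested genes (11.7), from *Rad21* at 150 to *Stag1* at 17.8.

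Between these ends, *Pds5a* followed at 77.8 ± 7.10 approximate TPM, then, by merged exons, *Smc1a* at 64.5 ± 7.99 and *Yy1* at 62.4 ± 4.83. The ranges of *Smc1a* and *Yy1* overlapped in both sexes, so their order is not resolved. *Smc3* (48.8 ± 3.02) and *Stag2* (48.2 ± 3.7) also overlapped in both sexes. *Ctcf* (35.7 ± 1.40) and *Nipbl* (34.3 ± 3.78) overlapped in male but not in female libraries, and *Pds5b* was at 22.7 ± 1.98. With the longest transcript as the length, *Smc1a* (67.5) and *Pds5a* (66.4) changed places and overlapped in both sexes. *Stag2* (55) and *Smc3* (47.5) also changed places, and overlapped in male but not in female libraries.

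Within each pair of related subunits 1 gene had the higher level in all 12 libraries. The ratio of *Stag2* to *Stag1* per length was 2.57 to 2.96 in female and 2.48 to 2.76 in male libraries, and the ratio of *Pds5a* to *Pds5b* was 3.34 to 3.55 and 3.21 to 3.61. Both ratios overlapped between the sexes. *Rad21* stood at 2.92 to 3.20 times *Smc3* over all libraries. The ratio of *Smc1a* to *Smc3*, the 2 SMC arms that pair in the ring, was 1.18 to 1.30 over the 6 female and 1.35 to 1.43 over the 6 male libraries, without overlap.

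Loss of *Firre* was not accompanied by a detected change in any of the 10 transcripts in either sex. None passed an adjusted p of 0.05 or the thresholds of the study (a 2-fold change at an adjusted p below 0.01) by the quasi-likelihood test of edgeR, adjusted by Benjamini-Hochberg. The background was as low. The thresholds of the study were passed by 0.0065% of the tested genes in female MEFs (1 gene, *Firre* itself) and 0.0065% in male MEFs (again *Firre*), and an adjusted p of 0.05 by 0.013% (*Firre* and *Tdrd3*) and 0.0065%. Unadjusted p-values under 0.05 were found for 1162 tested genes in the female comparison and 317 in the male one, and for 0 of the 10 members in either.

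**Figure D2:**
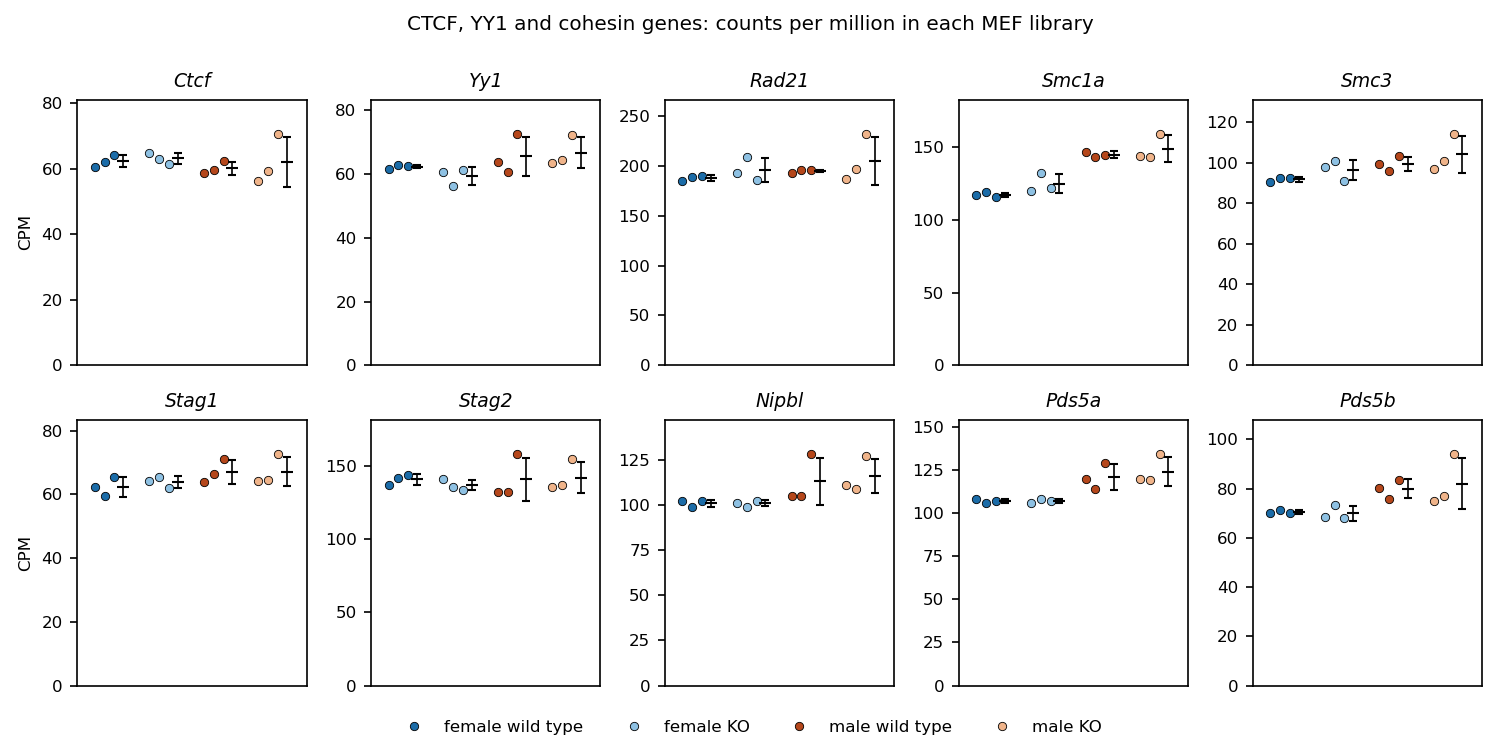
CPM of each gene in each of the 12 libraries, with axes starting at 0; circles are libraries and the black marks beside them are the mean ± SD of 3 libraries. Wild-type and KO circles lie at similar heights within each sex, and *Smc1a* lies at 116 to 132 CPM across female and 143 to 159 CPM across male libraries.

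*Ctcf* was at 60.5, 62.0 and 64.2 CPM in female wild-type MEFs and at 64.9, 62.9 and 61.4 CPM in their KO counterparts. Its male libraries were at 58.6, 59.5 and 62.4 CPM in wild type and at 56.2, 59.4 and 70.5 CPM in KO. The groups overlapped in both sexes, with 1 male KO library above all the others. The log2 fold change of KO over wild type was 0.02 ± 0.07 (SE, n = 3 against 3) in female and 0.04 ± 0.07 in male MEFs, with 95% confidence intervals of -0.14 to 0.18 and -0.11 to 0.20 and edgeR adjusted p-values of 0.97 and 1.

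*Yy1* was at 61.7, 62.7 and 62.4 CPM in female wild type and at 60.7, 56.2 and 61.1 CPM in female KO, so each KO library was below each wild-type one. Such a lack of overlap in CPM, in either direction, was found for 19.2% of the tested genes in female MEFs, and for 2 of the 10 members. The fitted log2 fold change was -0.07 ± 0.07 (SE), its interval ran from -0.22 to 0.08, and the edgeR adjusted p was 0.858. In male MEFs *Yy1* was at 63.7, 60.7 and 72.5 CPM in wild type and at 63.3, 64.5 and 72.3 CPM in KO, and the groups overlapped.

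Of the ring subunits, *Smc1a* was the other gene without overlap in female MEFs, at 117, 119 and 116 CPM in wild type and 120, 132 and 122 CPM in KO. Its log2 fold change of 0.09 ± 0.05 (SE, interval -0.02 to 0.20) had an edgeR adjusted p of 0.703, the smallest of the 10 members in that comparison. In male MEFs *Smc1a* was at 147, 143 and 145 CPM in wild type and 144, 143 and 159 CPM in KO. No member lacked overlap in male MEFs, where 5.3% of the tested genes did.

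*Rad21* was at 185, 189 and 190 CPM in female wild type and 193, 209 and 186 CPM in female KO. Its male libraries were at 193, 196 and 196 CPM in wild type and 187, 197 and 232 CPM in KO. The groups overlapped, and the log2 fold changes were 0.06 ± 0.07 in female and 0.07 ± 0.07 in male MEFs (SE). *Smc3* gave 0.07 ± 0.06 and 0.06 ± 0.06 on the same scale, with CPM of 90.4 to 92.6 against 90.8 to 101 in female and 96 to 103 against 96.7 to 114 in male MEFs.

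The remaining members, which are the variable subunits, the loader and the PDS5 proteins, had log2 fold changes between -0.04 (*Stag2*) and 0.04 (*Stag1*) in female MEFs and between 0.00 (*Stag1*) and 0.04 (*Nipbl* and *Pds5b*) in male MEFs. *Nipbl* was at 102, 98.8 and 102 CPM in female wild type and 101, 98.8 and 102 CPM in female KO. *Pds5a* was at 108, 106 and 107 CPM and at 106, 108 and 107 CPM in these groups, so that both genes were nearly level between the genotypes.

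**Figure D3:**
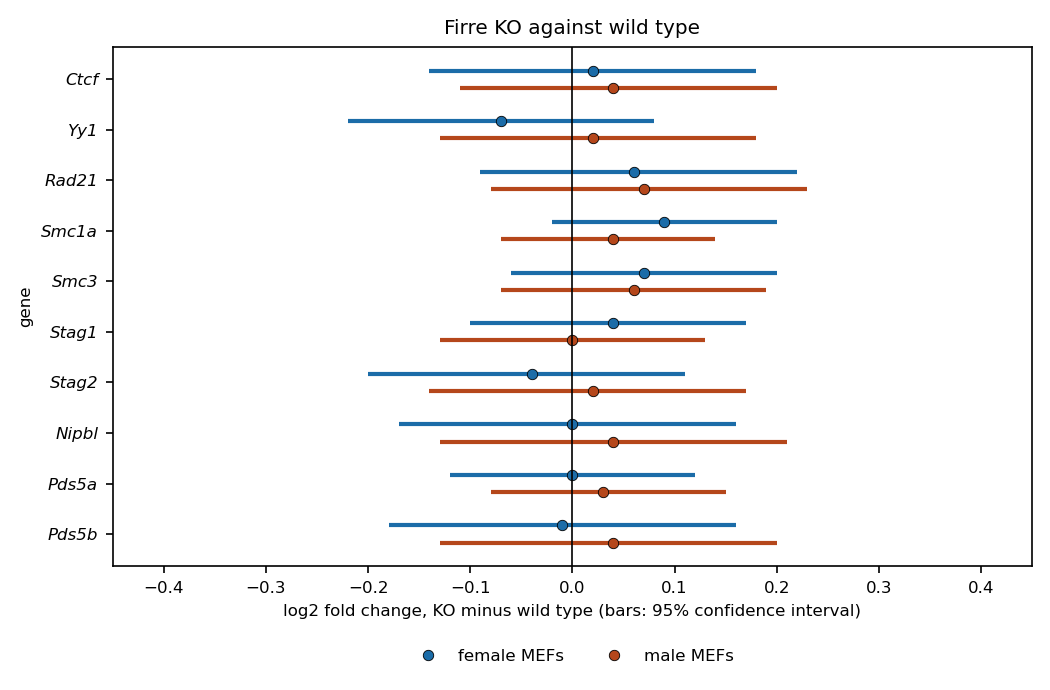
Log2 fold change of KO over wild type for each gene in female and male MEFs, from the edgeR fit; bars are 95% confidence intervals. Every interval crosses 0, and the bars reach from -0.22 to 0.23.

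The intervals bound the size of a change that these libraries could have missed. Over the 10 genes they ran from -14.3% to 16.1% in female MEFs and from -9.13% to 17.2% in male MEFs, relative to wild type. All 10 male values were at or above 0, and all 10 were below 0 when male KO replicate 3 was left out (-0.07 to -0.01). That library was above its group mean for 10 of 10 members, by 0.10 to 0.20 on the log2 scale, and the other 2 male KO libraries for 0 of 10. The KO effect in female minus that in male MEFs ranged from -0.09 (*Yy1*) to 0.05 (*Smc1a*), with intervals between -0.31 and 0.22. It passed for 0 of the 10 members and, under either rule, for 0% of the tested genes by edgeR, with 491 genes at an unadjusted p under 0.05 and 2 genes past the thresholds of the study by DESeq2.

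Female MEFs had less *Smc1a* and less *Pds5a* than male MEFs, in wild type and in KO alike. At an adjusted p of 0.05 by edgeR, 2 of the 10 genes were lower in female wild-type MEFs and 0 were higher, while 38.7% of the tested genes differed, 19.8% lower and 18.9% higher in female. In KO MEFs 3 of the 10 were lower and 0 higher, against 38.7% of tested genes that differed, 19.7% lower and 18.9% higher. The count of members that were lower differs from these shares of all genes by at most about 1 gene of 10, so it is not a result about the set. No member passed the thresholds of the study, which 4.54% of the tested genes did in wild type and 3.89% in KO.

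*Smc1a*, the X-linked ring subunit, was at 116 to 132 CPM with a median of 120 over the 6 female and at 143 to 159 CPM with a median of 144 over the 6 male libraries. The log2 fold change of female over male was -0.30 ± 0.05 (SE, interval -0.41 to -0.20, edgeR adjusted p = 0.000846) in wild type and -0.25 ± 0.05 (interval -0.36 to -0.14, adjusted p = 0.00253) in KO. All female libraries were below all male libraries. The call held in all 21 alternative analyses of each comparison, with log2 fold changes of -0.32 to -0.23 and -0.29 to -0.15.

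The other X-linked member did not follow this pattern. In wild type *Stag2* was at 137, 142 and 144 CPM in the female libraries and 132, 132 and 158 CPM in the male ones, and the groups overlapped. Its log2 fold change was 0.00 ± 0.07 (SE, adjusted p = 0.997) in wild type and -0.06 ± 0.07 (adjusted p = 0.547) in KO by edgeR. Of the 553 tested genes on chromosome X, 20.1% were lower and 21.7% higher in female than in male wild-type MEFs, and 22.8% were lower and 19% higher in KO.

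*Pds5a*, which regulates release of the ring, was at 106 to 108 CPM with a median of 107 in female libraries and 114 to 134 CPM with a median of 120 in male libraries. Its log2 fold change was -0.18 ± 0.05 (SE, edgeR adjusted p = 0.0198) in wild type and -0.21 ± 0.05 (adjusted p = 0.00888) in KO. The call in wild type was lost without female wild-type replicate 2 (adjusted p = 0.0609), female wild-type replicate 3 (0.0526) or male wild-type replicate 3 (0.0623), and with library size alone as the scaling (0.0531). The call in KO held in all 21 alternatives.

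*Pds5b*, the paralogue, was at 68.0 to 73.3 CPM in female libraries and 74.9 to 93.9 CPM in male libraries. Its log2 fold change was -0.23 ± 0.08 (SE, edgeR adjusted p = 0.0328) in KO and -0.18 ± 0.08 (adjusted p = 0.0778) in wild type. In wild type it was called lower in the fit of the 6 wild-type libraries alone (-0.18, adjusted p = 0.0218) and without male KO replicate 3 (-0.18, adjusted p = 0.00741). The call in KO was lost without male KO replicate 3 (-0.12, adjusted p = 0.0727), female KO replicate 1 (adjusted p = 0.0936) or female KO replicate 3 (0.0951), in the fit of the 6 KO libraries alone (0.0984) and with the trend described next removed (-0.03, 0.675).

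**Figure D4:**
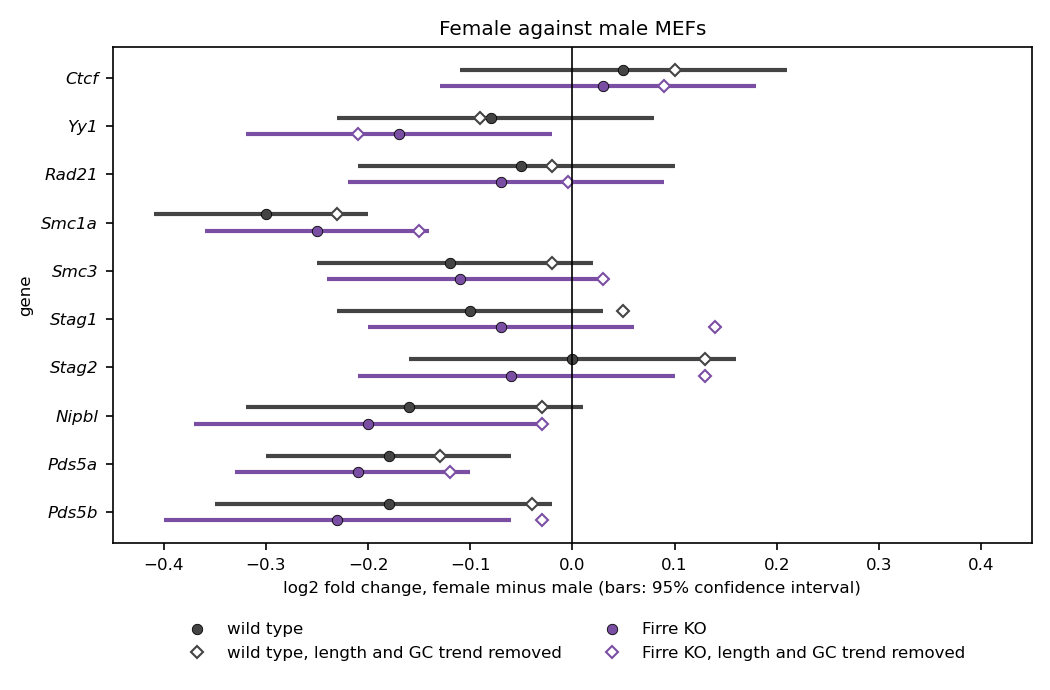
Log2 fold change of female over male MEFs for each gene in wild type and KO, from the edgeR fit; filled circles with bars are estimates with 95% confidence intervals, and open diamonds are estimates with the trend over exon length and GC content removed. *Smc1a* and *Pds5a* stay below 0 in both settings, whereas *Stag1* and *Stag2* move above 0 in KO (0.14 and 0.13) once the trend is removed.

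The difference between the sexes moved with the length and base composition of the transcript. Among the 3847 tested genes with the longest merged exons, which include 6 of the members, the median log2 fold change of female over male was -0.08 in wild type and -0.09 in KO, compared with 0.08 and 0.10 among the 3847 shortest, which include none. Over the 3847 genes of lowest GC content, with 6 members, the medians were -0.06 and -0.10, and over the 3847 of highest GC content, with none, 0.04 and 0.09. With this trend removed from each library, *Stag1* (0.14, adjusted p = 0.0156) and *Stag2* (0.13, adjusted p = 0.0183) were called higher in female KO MEFs by edgeR, and *Stag2* also in wild type (0.13, adjusted p = 0.0147). *Smc1a* and *Pds5a* kept their calls and their direction.

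Ranges over both genotypes gave a similar order. For *Smc1a*, *Pds5a*, *Pds5b* and *Nipbl* each of the 6 female libraries was below each of the 6 male libraries, a count of 4 of 10 beside 32.3% of the tested genes without overlap in either direction. *Nipbl* was at 98.8 to 102 CPM across female and 105 to 128 CPM across male libraries, with a log2 fold change of -0.16 ± 0.08 (SE, adjusted p = 0.129) in wild type and -0.20 ± 0.08 (adjusted p = 0.0573) in KO by edgeR. In KO it was called lower with no filter on low counts (-0.22, adjusted p = 0.0435), in the fit of the 6 KO libraries alone (-0.19, 0.0489), with the replicate number as a block (-0.20, 0.0225) and without male wild-type replicate 3 (-0.20, 0.0104). Within wild type 6 of the 10 genes did not overlap, beside 51.9% of the tested genes, and within KO 5 of the 10, beside 50.2%. *Ctcf* had the smallest difference of the 10 in KO, at 63.1 ± 1.73 CPM on the female and 62.0 ± 7.49 CPM on the male side (SD, n = 3 each). Its log2 fold change was 0.03, with an interval of -0.13 to 0.18. That rank depended on male KO replicate 3. Without that library the log2 fold change was 0.13 for *Ctcf*, 0.0029 for *Stag2* and 0.03 for *Rad21*.

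Other measures moved with sex as well. All 10 macrophage markers and, in wild type, all 7 epithelial markers were called higher in female MEFs by edgeR at an adjusted p of 0.05, and in KO 10 and 2 of them. Of 5 tested endothelial markers 3 were called higher in wild type and 1 in KO, and of 5 skeletal muscle and 5 neural markers 2 each in wild type and 3 each in KO. Of the 9 fibroblast markers 2 were called lower and 0 higher in female wild-type MEFs, and 3 lower and 1 higher in KO. The summed macrophage markers ranged, for female against male, from 56.8 to 107 against 9.49 to 16.1 CPM in wild type, and from 44.7 to 145 against 7.68 to 17.6 CPM in KO, and no marker of these lists was at 0 in every library. The 10 proliferation markers, of which 2 were called higher and 1 lower in each genotype, summed to 1447 to 1534 and 1381 to 1602 CPM in female and male wild type, and to 1530 to 1765 and 1416 to 1968 CPM in KO. The part of these cells and of the depth in the differences between the sexes was not tested, and fewer cells of a type cannot be told apart from less RNA per cell in such bulk libraries.

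Male KO replicate 3 was above its group mean for all 10 members, most for *Pds5b* at 0.20 on the log2 scale and least for *Smc1a* at 0.10, and male wild-type replicate 3 for 9 of 10, with *Nipbl* at 0.19. The root mean square deviation over all tested genes was also highest in these 2 libraries, at 0.319 and 0.307, against 0.224 to 0.297 in the others. Across the 12 libraries, the deviations of log2 CPM from the group mean correlated between members with a median Pearson r of 0.76 over 45 pairs, from 0.22 for *Yy1* and *Smc1a* to 0.93 for *Stag2* and *Nipbl*. Without the 2 male libraries, an analysis chosen after seeing the data, the median r was 0.11 over 10 libraries and ran from -0.73 for *Rad21* and *Nipbl* to 0.89 for *Smc1a* and *Pds5b*.

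**Figure D5:**
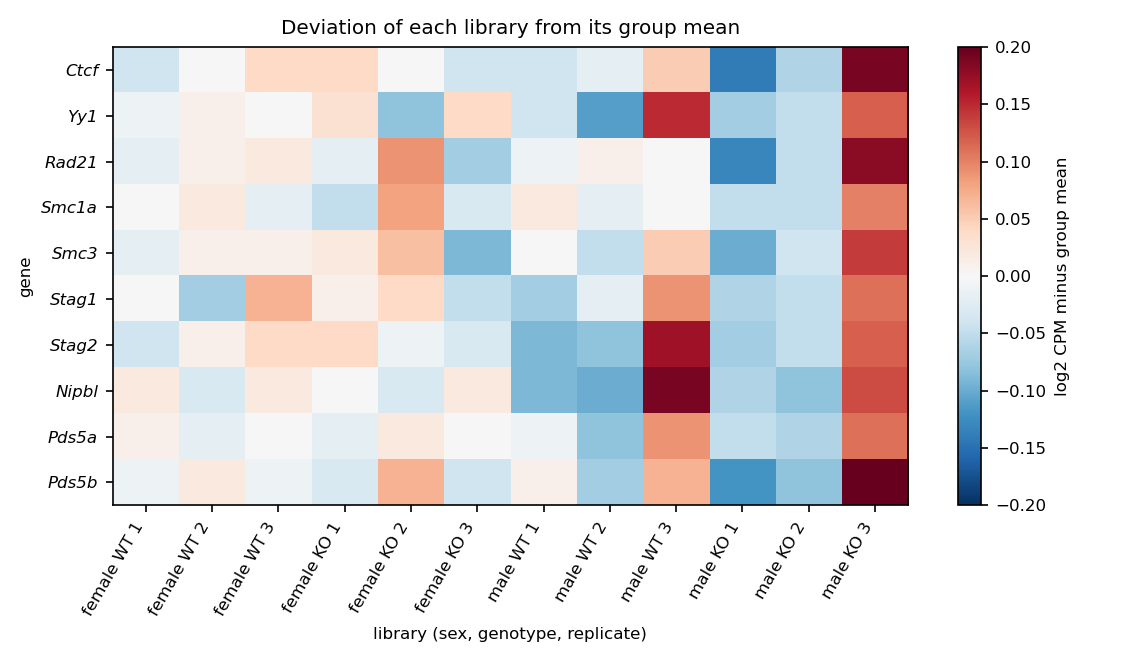
Deviation of each gene's log2 CPM from its group mean (colour, from -0.20 to 0.20) in each of the 12 libraries (columns). Male KO replicate 3 is above its mean for all 10 genes and male wild-type replicate 3 for 9 of 10, whereas male KO replicates 1 and 2 are below it for all 10.

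Each member varied less within groups than the median tested gene. The residual standard deviation on the log2 scale was lowest for *Smc1a* (0.0587) and *Pds5a* (0.0654) and highest for *Nipbl* (0.102), compared with 0.125 for the median gene. A smaller value was found for 17% of the tested genes in the case of *Smc1a* and for 41.4% in that of *Nipbl*. Every member was also above the median level, and no comparison with genes of like level was made. The genes whose deviations were most like those of *Ctcf* were *Eepd1*, *Ddx18* and *Dis3* (r = 0.97 each). For *Nipbl* they were *Ino80d* (0.99), *Gmfb* (0.99) and *Pura* (0.98), and for *Rad21* *Gm16898* (0.99), *Prim1* (0.99) and *Lsm6* (0.98). All 12 libraries entered these values, and 614, 1197 and 548 tested genes had an r over 0.8 with *Ctcf*, *Nipbl* and *Rad21*. Without male wild-type replicate 3 and male KO replicate 3, also chosen after seeing the data, these counts were 170, 273 and 543 over 10 libraries. The r values of the same genes were then 0.79 to 0.88 for *Ctcf*, 0.94 (*Ino80d*), 0.85 (*Gmfb*) and 0.43 (*Pura*) for *Nipbl*, and 0.94 to 0.98 for *Rad21*.

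Other genes of the pathway also showed no detected response to the loss of *Firre*. Of 12 regulators of cohesin, 13 genes of condensin and the SMC5/6 complex, 12 cofactors of CTCF and YY1, and the 2 tested paralogues, 0 passed an adjusted p of 0.05 in KO against wild type in either sex by edgeR, where 0.013% of tested genes did in female and 0.0065% in male MEFs. The medians of the first 3 lists lay between -0.01 and 0.09 on the log2 scale. *Cdca5*, which encodes sororin and protects cohesin after replication, had the largest value among the regulators in male MEFs, at 0.23 (adjusted p = 1). *Stag3*, the meiotic subunit, was at -0.53 in female MEFs (adjusted p = 0.607) and at 0.634 to 1.29 CPM over all libraries.

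Paralogues that act in germ cells or early embryos were at low levels. *Ctcfl*, the testis paralogue of *Ctcf*, had 1 to 20 expected counts per library (0.0294 to 0.379 CPM), and *Rad21l* had at most 1 and the meiotic *Smc1b* at most 7. The meiotic *Rec8* had 3 to 15 and the *Yy1* paralogue *Zfp42* 0 to 3 expected counts. None of these 5 genes passed the filter on low counts. *Yy2*, the other *Yy1* paralogue, was at 6.07 to 8.85 CPM.

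Between the sexes 1 of 12 regulators was higher and 2 were lower in female wild-type MEFs, and 0 were higher and 3 lower in KO. Of all tested genes 18.9% were higher in each comparison, and 19.8% and 19.7% were lower. *Mau2*, which forms the loader with NIPBL, had 40.2 ± 0.962 CPM in the female and 51.2 ± 2.94 CPM in the male wild-type libraries (SD, n = 3 each; log2 fold change -0.35, edgeR adjusted p = 0.000428) and at -0.35 in KO (adjusted p = 0.000406). *Wapal*, which encodes the cohesin release factor WAPL, was lower by the same test in wild type (-0.26, adjusted p = 0.00181) and in KO (-0.31, adjusted p = 0.000733). *Cdca5* was higher in female wild type (0.26, adjusted p = 0.03). X-linked *Hdac8*, the SMC3 deacetylase, had -0.22 in wild type (adjusted p = 0.0817) and was lower in KO (-0.34, adjusted p = 0.0145), and the SMC3 acetyltransferase gene *Esco1* had -0.12 (adjusted p = 0.394) and -0.08 (adjusted p = 0.565). The medians of the 12 regulators were -0.11 and -0.08, beside medians of all tested genes within 0.01 of 0.

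Of the condensin and SMC5/6 genes, 3 of 13 were higher and 1 lower in female wild-type MEFs, and 2 were higher and 2 lower in KO, a total of 4 of 13 in each beside 38.7% of all tested genes. *Smc5* was lower in both (-0.49, adjusted p = 0.00748, and -0.54, adjusted p = 0.0046, by edgeR), whereas its partner *Nsmce1* was higher in both (0.22, adjusted p = 0.00199, and 0.26, adjusted p = 0.000727). *Nsmce2* was higher in both as well (0.15 and 0.18), *Nsmce4a* was higher in wild type (0.23, adjusted p = 0.0411), and *Smc4*, a condensin subunit, was lower in KO (-0.34, adjusted p = 0.0295). Of the 12 cofactors, 5 were lower and 0 higher in wild type, and 5 lower and 1 higher in KO, beside 19.8% and 19.7% of all tested genes that were lower and 18.9% that were higher. Those lower were the same 5 genes in both genotypes. They were *Zfp143* (-0.26 and -0.19), which encodes a promoter-binding zinc finger protein, *Ddx5* (-0.19 and -0.21), an RNA helicase gene, *Top2b* (-0.19 and -0.18), which encodes a topoisomerase found with CTCF at domain borders, and the remodeller genes *Chd8* (-0.15 and -0.18) and *Ino80* (-0.14 in each). X-linked *Hcfc1*, whose product binds YY1 in a deubiquitinase complex with BAP1, was higher in KO (0.21, adjusted p = 0.00477). Of the 2 tested paralogues, *Stag3* was lower in female KO MEFs (-0.72, adjusted p = 0.0192) and 0 differed in wild type.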

How the data were processed

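RNA-seq libraries were prepared with TruSeq and sequenced on HiSeq2500. The authors aligned filtered reads by Bowtie 2, and the unscaled expected counts they deposited came from RSEM 1.2.29. All 37310 identifiers were found in the annotation of NCBIM37 (mm9), from which positions and lengths were taken. The Hi-C files were not used here, and the ChIP-seq samples were not analysed here.

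Expected counts were rounded and tested with edgeR 4.0.16 (R 4.3.3; TMM, filterByExpr, quasi-likelihood, Benjamini-Hochberg adjustment over 15387 genes) with 1 mean per sex and genotype, 8 residual degrees of freedom and a biological coefficient of variation of 0.114. CPM used TMM-scaled library sizes, log2 CPM a prior count of 2. Intervals are at 95%. DESeq2 1.42.0, with a mean dispersion fit, was an alternative. The edgeR steps were run on simulated data first. Plots were drawn with matplotlib 3.10.9, and promoters came from RefSeq (GRCm38.p6).

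The genes and pathway lists were chosen with earlier results of these data known. Named genes were the members, *Firre*, *Xist*, *Mau2*, *Wapal*, *Esco1*, *Hdac8* and *Ctcfl*, up to 3 genes per list and comparison with an adjusted p under 0.05 and the largest change, and the 3 genes whose deviations were most like those of *Ctcf*, *Nipbl* and *Rad21*. Other genes, such as *Tdrd3*, *Chd8* and *Ino80*, were named after their values were seen, to complete a count or to illustrate a list. Alternatives were the tool, scaling, filter, libraries in the fit, threshold, replicate block, a lowess trend over length and GC content, transcript length and each library left out in turn.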

Additional observations from a re-analysis of the deposited data

How the results depend on the processing

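The KO comparisons are limited by the depth and by 3 libraries a group. The intervals given above are for single genes and do not give the smallest change that would be called. Sex, depth and culture cannot be told apart. No member was called in KO against wild type or in the difference between the sexes under any alternative, and the smallest adjusted p there was 0.465. Of the members' log2 fold changes, 403 of the values under alternatives other than leaving out a library kept direction and side of the threshold, 25 reversed (4 of them with a call gained in the new direction), 8 others gained a call and 4 lost one. With 1 library left out 530 kept both, 61 reversed, 3 gained a call and 6 lost one. The cause of the changes was not tested except where stated.

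Genes past the thresholds of the study in KO against wild type numbered 1 in each sex. They numbered 0 in each with at least 10 counts in every library (*Firre* was then not tested), with only the 6 libraries compared, with the replicate block, and with the block and the length and GC trend removed, where the adjusted p of *Firre* was 0.0105 to 0.0323. By DESeq2 they numbered 0 in female MEFs, where the adjusted p of *Firre* was not given, 4 in male MEFs (*Firre*, *Gm13394*, *Gm14432*, *Gm14494*) and 2 in the difference between the sexes (*Gm13394*, *Lum*). At an adjusted p of 0.05 without a fold limit they numbered 2 in female KO against wild type, 5953 in female against male wild type and 5949 in female against male KO. By the thresholds of the study, the latter 2 comparisons gave 698 and 599 genes. With the same thresholds, the fit of the 6 KO libraries gave 370 in KO, and leaving out 1 library gave 432 to 763 in wild type (lowest without male wild-type replicate 1) and 329 to 621 in KO (lowest without male KO replicate 1).

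Members called between the sexes in wild type numbered 1 with library size alone and 1 to 3 with 1 library left out (1 without male wild-type replicate 3). In KO they numbered 5 with the replicate block, where *Yy1* (-0.17) and *Nipbl* (-0.20) were added. With the block and the trend removed they also numbered 5, but there *Stag1* (0.14) and *Stag2* (0.13) were called higher in female MEFs. In that setting *Yy1* (-0.20) was called lower and *Pds5b* (-0.03) lost its call. With 1 library left out they numbered 2 to 5 (2 without male KO replicate 3, 5 without male wild-type replicate 3). Deviations of same-numbered wild-type and KO libraries correlated at -0.164, -0.118 and -0.152 in female MEFs, where different numbers gave -0.0368 to 0.181. In male MEFs the same numbers gave 0.0966, 0.216 and 0.333, and different numbers gave -0.288 to 0.136. Whether replicate numbers pair the samples was not tested. Apart from *Yy1* and *Nipbl*, the block alone changed no member's call.

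With the length and GC trend removed, with or without the block, log2 fold changes of KO over wild type in female MEFs became 0.01 for *Stag2*, 0.03 for *Nipbl* and 0.04 for *Pds5b*. The difference between the sexes in the KO effect became 0.02 for *Rad21*, 0.01 for *Pds5b* and 0.0045 (0.0048 with the block) for *Pds5a*. Female over male became 0.05 for *Stag1* in wild type and 0.03 for *Smc3*, 0.14 for *Stag1* and 0.13 for *Stag2* in KO. For *Pds5a* in female KO against wild type the value was -0.02 with library size alone, -0.01 with at least 10 counts and -0.0046 in the fit of 6 libraries. *Smc3* in the difference between the sexes was -0.02 with library size alone, and *Stag2* in female against male wild type was -0.02 without a filter.

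With 1 library left out, female KO over wild type ranged from -0.0019 to 0.04 for *Ctcf*, -0.02 to 0.01 for *Nipbl*, -0.01 to 0.01 for *Pds5a* and -0.05 to 0.01 for *Pds5b*. The male values ranged from -0.06 to 0.11 for *Ctcf*, -0.04 to 0.10 for *Yy1*, -0.02 to 0.14 for *Rad21*, -0.02 to 0.06 for *Smc1a*, -0.01 to 0.11 for *Smc3*, -0.06 to 0.05 for *Stag1*, -0.05 to 0.11 for *Stag2*, -0.03 to 0.14 for *Nipbl*, -0.02 to 0.08 for *Pds5a* and -0.07 to 0.10 for *Pds5b*, each lowest without male KO replicate 3. The difference between the sexes ranged from -0.09 to 0.08 for *Ctcf*, -0.08 to 0.08 for *Rad21*, -0.04 to 0.08 for *Smc3*, -0.01 to 0.09 for *Stag1*, -0.15 to 0.0037 for *Stag2*, -0.15 to 0.02 for *Nipbl*, -0.08 to 0.02 for *Pds5a* and -0.11 to 0.06 for *Pds5b*. Female over male ranged from -0.13 to 0.0001 for *Yy1* and -0.04 to 0.09 for *Stag2* in wild type, and from -0.04 to 0.13 for *Ctcf*, -0.13 to 0.03 for *Rad21* and -0.09 to 0.0029 for *Stag2* in KO.

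With the longest transcript as the length, levels in wild-type MEFs were 39 approximate TPM for *Ctcf*, 128 for *Rad21*, 25.2 for *Stag1*, 55 for *Stag2*, 29.2 for *Nipbl* and 66.4 for *Pds5a*, and the ratios were 2.19 for *Stag2* to *Stag1*, 2.72 for *Pds5a* to *Pds5b* and 2.7 for *Rad21* to *Smc3*.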
